A study of Mus musculus with 6 samples.

Results

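The collagen gene family was described in 6 RNA sequencing libraries of mouse uterine tissue taken around embryo implantation sites on day 13 of gestation. Members were all symbols of the deposited table made of Col, a number, the letter a and a number, which gave 44 genes of 24964 listed. Another 8 symbols that start with Col, such as those of collectins and of enzymes, lay outside the pattern and were not counted as members. The libraries fell into 2 groups, 3 whose labels give a myometrial PGR knockout and 3 whose labels give control. PGR is the progesterone receptor, the nuclear receptor through which progesterone acts, and the myometrium is the smooth muscle wall of the uterus. Not given in the sources used here were strain, age, parity, the driver of the deletion, the alleles the controls carry and any pooling of animals. The tissue was not restricted to muscle, so each library holds RNA of muscle, stroma, glands, vessels and blood cells together. The question the design poses is how transcripts of the mid-pregnancy uterus differ with a deletion of the receptor in muscle.

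Collagens are trimers of chains wound into a triple helix and secreted into the extracellular matrix. Fibrillar collagens form the ropes that bear tension in connective tissue, collagen IV forms the sheet-like network of basement membranes, collagen VI forms beaded filaments near cells, and FACIT collagens (fibril-associated collagens with interrupted triple helices) sit on fibrils or link them to other matrix. In the uterus, smooth muscle cells lie in sleeves of basement membrane between bundles of fibrillar collagen, and this matrix is remodelled as the wall stretches in pregnancy.

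The deposited levels are FPKM, which scale the fragments on a gene to its length and to the size of the library. Summed FPKM was between 357126 and 372372 in the 3 libraries labelled deficient and between 372412 and 377091 in the 3 control libraries. Between 72.5% and 79.5% of low values lay within 0.1 of a whole number of reads at the best-fitting library size, which was between 36500000 and 37300000 reads in the 6 columns. This may be each library's depth or 1 size shared by all, and the depth of single libraries is unknown. At a size of 36800000, 3 reads on a gene of 1 kb correspond to 0.0815 FPKM. Pgr itself was at 11.3, 12.4 and 7.73 FPKM in libraries labelled deficient and at 9.72, 8.33 and 12.1 FPKM in controls. The groups overlapped (log2 difference 0.05, 95% confidence interval from -0.42 to 0.51, limma adjusted p = 0.91), and the sign of this difference turned under median-of-ratios scaling and quantile normalization and when control 2, deficient 1 or deficient 2 was left out. The Pgr level, in tissue not restricted to muscle, did not bear out the label and cannot settle it. The libraries are therefore called those labelled deficient, and all directions rest on that label. In both groups the third library was least like the others. Across the genes tested, which are no independent replicates, the log2 values of deficient 3 correlated at 0.976 and 0.971 with deficient 1 and 2, which correlated with each other at 0.991, and those of control 3 correlated at 0.983 and 0.982 with control 1 and 2, which correlated at 0.992. Control 3 correlated at 0.977 with both deficient 1 and deficient 2, above either value of deficient 3 with its own group. Nothing in the labels ties the libraries to separate animals, and the spread behind each p-value may be technical. In bulk tissue, fewer cells of a type and less RNA per cell cannot be told apart.

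The main chains of basement membrane collagen IV, Col4a1 and Col4a2, and the FACIT collagen Col16a1 fell in the libraries labelled deficient, each to between 71.9% and 72.7% of the control mean. Of the 44 collagen genes, 26 averaged 1 FPKM or more across the 6 libraries and were tested with limma on log2(FPKM + 1) together with all other genes at that level. Among these 26, 3 fell (Col4a1, Col4a2 and Col16a1, 11.5% of the members tested), 0 rose and 23 did not pass an adjusted p of 0.05. Over all 12500 genes tested, 3.34% passed, 1.99% lower and 1.34% higher. At an unadjusted p under 0.05, 11 members had lower and 3 higher values, where 7.09% and 14.4% of all genes tested did. The 3 values of the libraries labelled deficient lay below all control values for 11 members and above them for 3, 53.8% of the members tested, against 29% of all genes tested, of which 8.16% were separated downwards and 20.8% upwards. The median log2 difference was -0.13 over the 26 members and 0.06 over all genes tested. Without trend or with a pseudocount of 0.1 or 0.5 the same 3 members were called. With 1 library left out, the number called was 0 in 4 of the 6 fits, 1 without control 3 (Col4a2) and 3 without deficient 3. With array weights 9 members were lower and 1 higher (Col20a1), where 14.2% of all genes tested passed, and with the third library of both groups left out 6 were lower, where 10.2% did.

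**Figure D1:**
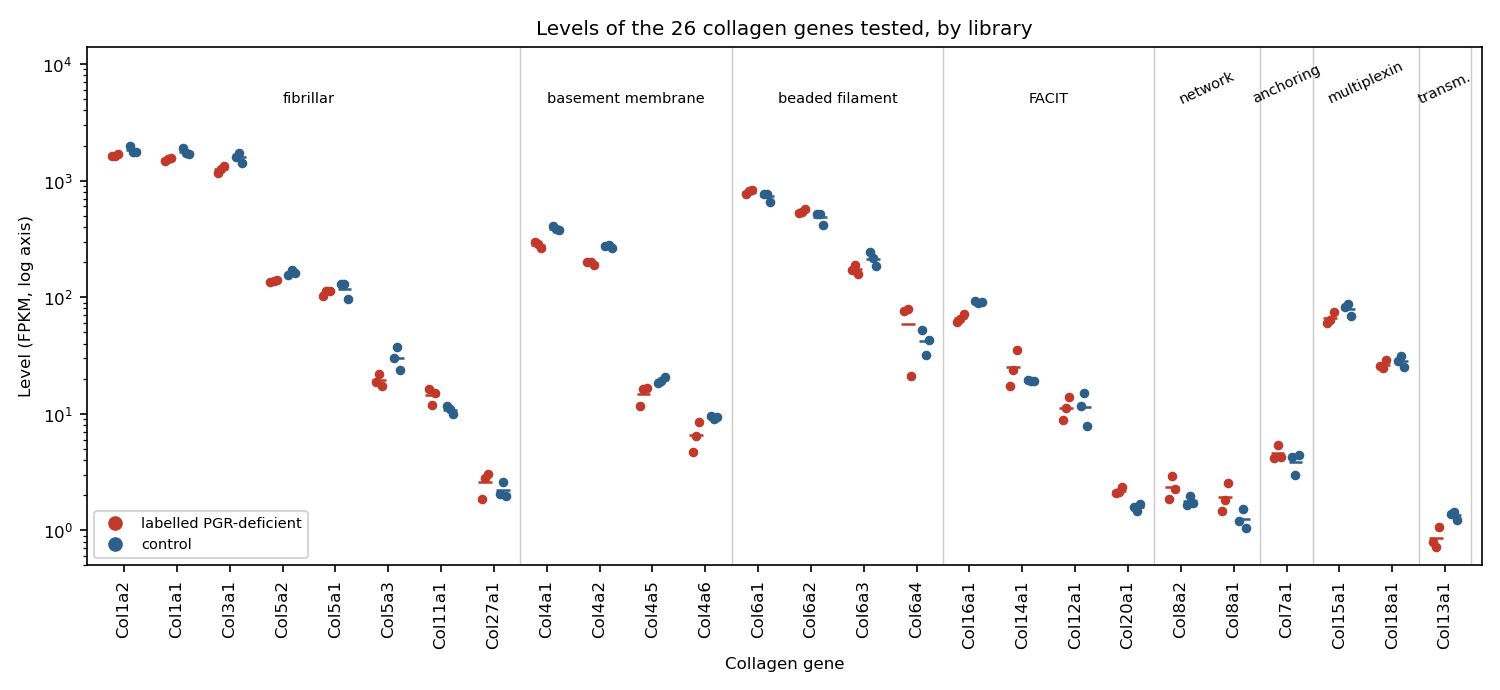
Level in FPKM on a log axis of each of the 26 collagen genes tested, ordered by class, with 1 point per library, the mean as a bar and the libraries labelled deficient (red) left of the controls (blue). Col1a2, Col1a1 and Col3a1 are the highest genes in every library, Col4a1, Col4a2 and Col16a1 show separated groups, and deficient 3 lies far below the other libraries labelled deficient for Col6a4.

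The fibrillar collagens were the most abundant members and 0 of the 8 tested passed the threshold, while 4 had lower and 1 higher values at an unadjusted limma p under 0.05. Col1a2 and Col1a1 encode the chains of collagen I, the main collagen of fibrils, and Col3a1 encodes collagen III, which forms thin, extensible fibrils with it. Col1a1 was at 1473, 1528 and 1555 FPKM in libraries labelled deficient and at 1891, 1715 and 1689 FPKM in controls. Col1a2 was at 1622, 1642 and 1676 FPKM in libraries labelled deficient and at 1969.8, 1769 and 1762 FPKM in controls. For both genes every library labelled deficient lay below every control. The log2 difference was -0.22 (SE 0.09, limma adjusted p = 0.23) for Col1a1 and -0.15 (SE 0.09, limma adjusted p = 0.37) for Col1a2. Under quantile normalization, which ties the highest ranks of all libraries together, both signs turned (0.04 and 0.07).

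Col3a1 was at 1166, 1254 and 1339 FPKM in libraries labelled deficient and at 1609.8, 1729 and 1425 FPKM in controls. Its groups did not overlap, and its mean was 78.9% of the control mean (log2 difference -0.34, 95% confidence interval from -0.60 to -0.08, limma adjusted p = 0.15). It passed with array weights and with the third library of both groups left out. Collagen V, which is built into collagen I fibrils and limits their width, has the chains Col5a1, Col5a2 and Col5a3. Col5a2 was at 136, 137 and 139.8 FPKM in libraries labelled deficient and at 154, 170.0 and 163 FPKM in controls, again without overlap (log2 difference -0.23, limma adjusted p = 0.12). Col5a3 had the lowest log2 difference of all members tested, -0.61 (SE 0.17, limma adjusted p = 0.12). Its levels were 18.6, 22.1 and 17.3 FPKM in libraries labelled deficient and 29.9, 37.2 and 23.8 FPKM in controls, with no overlap but a wide spread among the controls. Col5a3 passed with array weights and with the third library of both groups left out. Col5a1 overlapped, at 102, 114 and 113 FPKM in libraries labelled deficient and at 129, 129.6 and 96.9 FPKM in controls (-0.10, limma adjusted p = 0.68).

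Not all fibrillar chains had lower values. Col11a1, a chain of collagen XI that forms mixed trimers with collagen V chains, was at 16.3, 11.8 and 15.2 FPKM in libraries labelled deficient and at 11.7, 10.9 and 9.90 FPKM in controls. The lowest of the libraries labelled deficient, at 11.791 FPKM, lay just above the highest control, at 11.748 FPKM, and the difference did not pass (log2 difference 0.37, SE 0.13, limma adjusted p = 0.17). Col27a1, a fibrillar collagen of cartilage and other tissues, overlapped at means of 2.58 ± 0.62 FPKM in libraries labelled deficient and 2.20 ± 0.34 FPKM in controls (SD, n = 3 each).

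All 4 collagen IV chains tested were lower in each library labelled deficient than in every control, and 2 of them, Col4a1 and Col4a2, passed the test. These 2 chains form the trimer found in nearly all basement membranes. Col4a1 was at 296, 285 and 263 FPKM in libraries labelled deficient and at 405, 383 and 373 FPKM in controls. Its mean was 281 ± 17 FPKM in libraries labelled deficient and 387 ± 16 FPKM in controls (SD, n = 3 each), which gave a log2 difference of -0.46 (SE 0.08, 95% confidence interval from -0.65 to -0.27, limma adjusted p = 0.035). Col4a2 was at 201, 201 and 190.0 FPKM in libraries labelled deficient and at 276, 282 and 265 FPKM in controls. Its log2 difference was -0.47 (SE 0.07, 95% confidence interval from -0.63 to -0.31, limma adjusted p = 0.020), and its mean was 71.9% of the control mean, next to 72.6% for Col4a1. For both chains the difference between the means was larger than the spread within either group.

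The log2 difference of Col4a2 stayed between -0.50 and -0.45 with 1 library left out, but its limma adjusted p was 0.10 when control 1 or control 2, 0.084 when deficient 1 and 0.071 when deficient 2 was left out. That of Col4a1 stayed between -0.50 and -0.41, with a limma adjusted p of 0.15 when control 1, 0.14 when control 2, 0.056 when control 3, 0.095 when deficient 1 and 0.10 when deficient 2 was left out. Col4a1 also missed the threshold after rescaling to equal sums (0.062), with quantile normalization (0.070) and with no filter on low values (0.078).

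The other chains of collagen IV tested, Col4a5 and Col4a6, occur together in the basement membranes of smooth muscle. Col4a5 was at 11.6, 16.4 and 16.5 FPKM in libraries labelled deficient and at 18.4, 19.0 and 20.9 FPKM in controls (log2 difference -0.38, SE 0.14, limma adjusted p = 0.20). Col4a6 was at 4.68, 6.48 and 8.55 FPKM in libraries labelled deficient and at 9.54, 8.97 and 9.41 FPKM in controls (-0.48, SE 0.18, limma adjusted p = 0.20). For Col4a6 the controls lay close together while the libraries labelled deficient spread from 4.68 to 8.55 FPKM, and its call was made only with array weights among the alternatives run. Col4a3 and Col4a4, the chains known from kidney and inner ear basement membranes, were under 1 FPKM in every library.

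Each pair of collagen IV genes lies head to head on its chromosome, and Col4a1 and Col4a2 share their promoter region. In GENCODE M21 (GRCm38, the assembly also called mm10), Col4a1 lies on the minus strand of chromosome 8 from 11198423 to 11312826 and Col4a2 on the plus strand from 11312805 to 11449287, so that their annotated ends overlap by 22 bases. Col4a3 and Col4a4 are 71 bases apart on chromosome 1, and Col4a5 and Col4a6 are 1308 bases apart on chromosome X. The promoter windows of the 3 members that passed are shown because both collagen IV genes that fell start from neighbouring sites, and Col16a1 had a difference of like size on another chromosome. Each RefSeq window (GRCm38.p6) is 300 bases long around the start, at chr8:11312555-11312854 on the plus strand for Col4a2, chr8:11312777-11313076 on the minus strand for Col4a1 and chr4:130047590-130047889 on the plus strand for Col16a1. Capitals mark matches on either strand to the GC box GGGCGG and to CCAAT.
Col4a2: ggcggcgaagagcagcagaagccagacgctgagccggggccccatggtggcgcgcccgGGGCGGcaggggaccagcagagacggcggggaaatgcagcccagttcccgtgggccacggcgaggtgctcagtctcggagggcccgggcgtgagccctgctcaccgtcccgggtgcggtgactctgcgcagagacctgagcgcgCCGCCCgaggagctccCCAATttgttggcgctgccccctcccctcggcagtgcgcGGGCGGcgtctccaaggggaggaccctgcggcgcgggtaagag
Col4a1: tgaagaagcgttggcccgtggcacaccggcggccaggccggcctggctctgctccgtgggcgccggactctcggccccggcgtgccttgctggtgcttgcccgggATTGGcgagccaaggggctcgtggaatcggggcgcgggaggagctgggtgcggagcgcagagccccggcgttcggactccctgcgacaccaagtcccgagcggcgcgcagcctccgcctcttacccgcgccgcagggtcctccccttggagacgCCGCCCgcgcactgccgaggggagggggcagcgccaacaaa
Col16a1: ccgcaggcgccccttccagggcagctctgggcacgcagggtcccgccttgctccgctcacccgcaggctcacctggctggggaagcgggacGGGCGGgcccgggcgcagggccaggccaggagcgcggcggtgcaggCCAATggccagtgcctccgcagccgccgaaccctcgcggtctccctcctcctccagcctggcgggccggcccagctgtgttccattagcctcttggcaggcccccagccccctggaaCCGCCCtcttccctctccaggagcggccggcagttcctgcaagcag
The windows of Col4a1 and Col4a2 share 78 bases and read the same sequence there from opposite strands. The Col4a2 window holds 3 GC boxes and 1 CCAAT. The Col4a1 window holds 1 of each, and the Col16a1 window 2 GC boxes and 1 CCAAT. Within a window no match overlaps another. The GC box of the Col4a1 window lies in the 78 shared bases. It is the same site as the last GC box of the Col4a2 window. Over 32851 windows of the same length, 35.7% hold GGGCGG and 37.4% hold CCAAT. Of the 44 members, 35 had a window, of which 22 (62.9%) hold GGGCGG and 13 (37.1%) CCAAT. GC content was 73.7% in the Col4a2 window, 74.0% in the Col4a1 window and 74.3% in the Col16a1 window, where the median over all windows was 52.7%. The letters TATAAA (13.6% of all windows), TGTTCT, which is only 1 arm of the progesterone receptor element (19%), and the CArG box of smooth muscle genes (1.63%) were not found in these 3 windows, which says nothing about binding elsewhere.

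Smooth muscle markers, like the collagen IV chains, were lower in the libraries labelled deficient. All 8 smooth muscle markers (Acta2, Actg2, Myh11, Tagln, Cnn1, Des, Smtn and Lmod1) fell, and their summed level was between 3261 and 3845 FPKM in libraries labelled deficient and between 8069.6 and 9848 FPKM in controls. Endothelial cells also lie on collagen IV, and 0 of the 8 endothelial markers passed in limma, with 0 at an unadjusted p under 0.05 (median log2 difference 0.04), with sums between 136 and 185 FPKM in libraries labelled deficient and between 149 and 159.9 FPKM in controls. Decidual markers summed to 31.4, 54.2 and 36.8 FPKM in libraries labelled deficient and 217, 409 and 110 FPKM in controls, and 1 of the 4 tested (Fst) fell. Most of the control sum came from Prl8a2, at 5.44, 26.5 and 0.664 FPKM in libraries labelled deficient and 155, 355 and 60.4 FPKM in controls (limma adjusted p = 0.089), while Bmp2 and Wnt4 of the same list were higher in each library labelled deficient than in every control. Of 7 epithelial markers, 2 rose (Krt19 and Cdh1) and 0 fell, with sums between 765 and 971 FPKM in libraries labelled deficient and between 597 and 663 FPKM in controls. The part of these cell types in the collagen IV difference was not tested. The 7 conceptus markers listed, alpha-fetoprotein (Afp) and Tpbpa among them, summed to at most 1.26 FPKM in libraries labelled deficient, where deficient 2 was highest through Ttr, and at most 0.483 FPKM in controls.

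**Figure D2:**
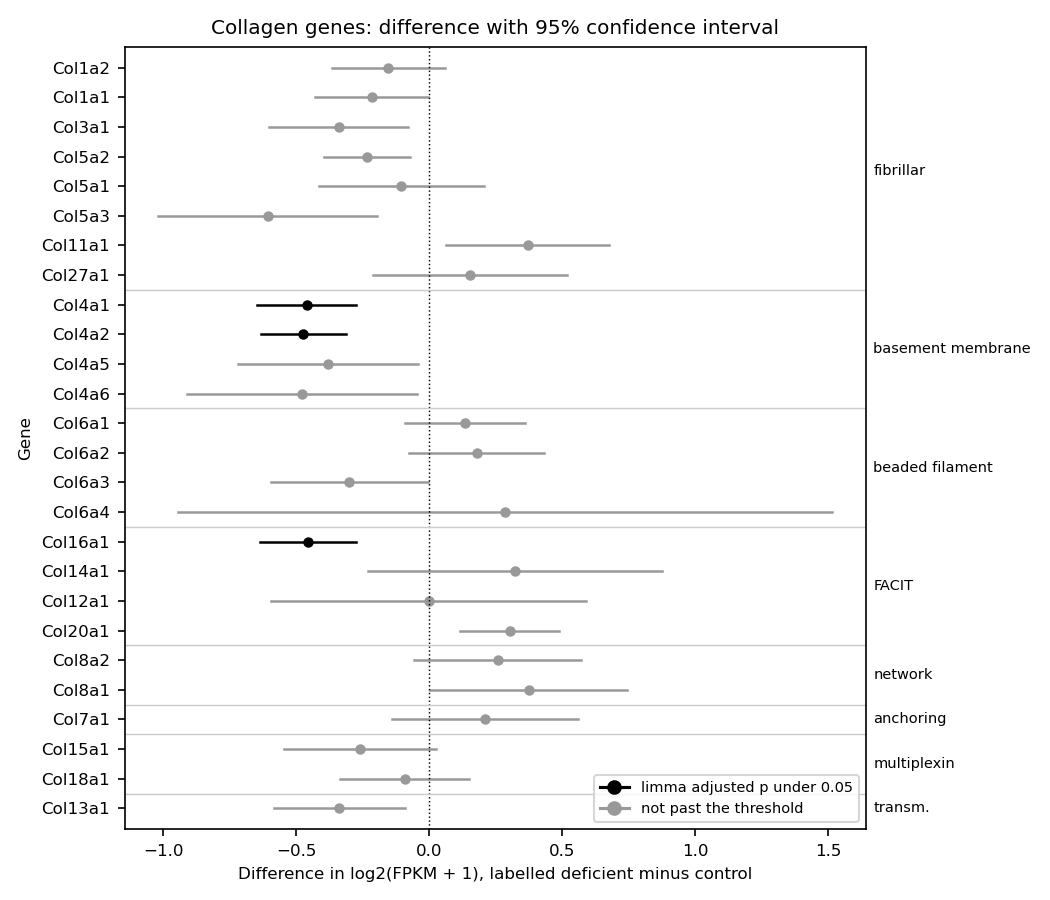
Difference in log2(FPKM + 1), labelled deficient minus control, of each of the 26 collagen genes tested, with its 95% confidence interval from limma; black marks genes past an adjusted p of 0.05. Col4a1, Col4a2 and Col16a1 are black, at -0.46, -0.47 and -0.46, and Col6a4 has the widest interval, from -0.94 to 1.51.

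Of the 4 beaded filament collagens tested with limma, 0 passed and 1 (Col6a3) had an unadjusted p under 0.05. Collagen VI is a trimer of the Col6a1 and Col6a2 chains with a longer chain, most often that of Col6a3. Col6a1 was at 766, 819.8 and 828 FPKM in libraries labelled deficient and at 773, 769 and 662 FPKM in controls, and the groups overlapped (log2 difference 0.13, limma adjusted p = 0.45). Col6a2 was at 525, 539.9 and 569.8 FPKM in libraries labelled deficient and at 515, 516 and 419 FPKM in controls (0.18, limma adjusted p = 0.38). Its groups did not overlap, with control 1 and control 2 just below the libraries labelled deficient, and without the low control 3 the log2 difference was 0.08. Col6a3 was at 172, 189.7 and 158 FPKM in libraries labelled deficient and at 242, 215 and 185 FPKM in controls (-0.30, SE 0.12, limma adjusted p = 0.23), and its groups overlapped through control 3. Col6a3 passed with array weights. Both Col6a1 and Col6a2 kept a positive difference and Col6a3 a negative difference in each of the 17 alternatives run.

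Col6a4, which encodes another long chain of collagen VI in the mouse, had the widest confidence interval of the members tested. It was at 76.6, 79.4 and 21.3 FPKM in libraries labelled deficient and at 52.6, 31.7 and 42.8 FPKM in controls. Deficient 1 and 2 lay above every control and deficient 3 below every control, so that its log2 difference of 0.29 (SE 0.51, limma adjusted p = 0.78) ranged from -0.03 to 0.92 over the alternatives and turned sign without deficient 1 or deficient 2. The mesothelial markers Msln, Upk3b, Lrrn4 and Upk1b also had their lowest sum in deficient 3. They summed to 25.7, 28.6 and 12.04 FPKM in libraries labelled deficient and 13.3, 26.4 and 23.5 FPKM in controls. Among the controls the order differed, with control 1 lowest for this sum and highest for Col6a4. The 7 epithelial markers summed to 971, 916 and 765 FPKM in libraries labelled deficient and to 648, 597 and 663 FPKM in controls. This sum was lowest of its group in deficient 3 through Krt8, Krt18 and Krt19. Epcam, Cdh1 and Cldn3 of the same list were highest of their group in deficient 3, and Cldn4 was lowest in deficient 1. The part of mesothelium and epithelium in the spread of Col6a4 was not tested. Col6a5 and Col6a6, neighbours of Col6a4 on chromosome 9, were under 1 FPKM in every library.

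Of the FACIT collagens, 4 of 9 were tested and 1 fell. Col16a1, a minor collagen of fibril surfaces and microfibrils, was at 61.6, 64.8 and 71.6 FPKM in libraries labelled deficient and at 93.2, 88.8 and 90.2 FPKM in controls. The controls lay close together and every library labelled deficient was below the lowest of them. Its mean was 66.0 ± 5.1 FPKM in libraries labelled deficient and 90.8 ± 2.3 FPKM in controls (SD, n = 3 each), which gave a log2 difference of -0.46 (SE 0.07, 95% confidence interval from -0.64 to -0.28, limma adjusted p = 0.032). With 1 library left out the difference stayed between -0.52 and -0.41, and the limma adjusted p was 0.14 without control 1, 0.12 without control 2, 0.065 without control 3, 0.12 when deficient 1 and 0.10 when deficient 2 was left out. It was 0.072 with no filter on low values. Col16a1 lies on the plus strand of chromosome 4 from 130047840 to 130099283 (GRCm38). The smooth muscle markers, 8 of 8, were lower in the same group. They summed to 3274, 3845 and 3261 FPKM in the libraries labelled deficient, nearly equal in deficient 1 and deficient 3. Acta2, Myh11, Tagln, Cnn1, Smtn and Lmod1 were lowest in deficient 1, as was Col16a1. Actg2 and Des were lowest in deficient 3, where Col16a1 was highest. Of the fibroblast markers, 0 of 8 (Pdgfra, Pdgfrb, Dcn, Lum, Dpt, Fbln1, Mfap5 and Thy1) passed. At an unadjusted limma p under 0.05, 2 had higher values (Pdgfra and Pdgfrb) and 1 had lower values (Thy1). The sums of the fibroblast markers were between 1369 and 1492 FPKM in libraries labelled deficient and between 1435 and 1496 FPKM in controls. Their part in the Col16a1 difference was not tested.

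The other FACIT collagens tested did not pass. Col14a1, which binds collagen fibrils through decorin, was at 17.4, 23.6 and 35.1 FPKM in libraries labelled deficient and at 19.7, 19.0 and 19.1 FPKM in controls. The controls were nearly equal, and deficient 3 lay well above all other libraries while deficient 1 lay below all of them (log2 difference 0.32, limma adjusted p = 0.46). Col12a1, a FACIT collagen of tissues under tension, averaged 11.3 ± 2.5 FPKM in libraries labelled deficient and 11.5 ± 3.6 FPKM in controls (SD, n = 3 each), with a sign that turned in 6 of the 17 alternatives. Col20a1 was at 2.09, 2.12 and 2.35 FPKM in libraries labelled deficient and at 1.58, 1.47 and 1.70 FPKM in controls. Its groups did not overlap (0.30, SE 0.08, limma adjusted p = 0.099), and it passed only with array weights among the alternatives run.

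Among the remaining classes 0 of 6 members tested passed in limma, and 2 (Col8a1 and Col13a1) had an unadjusted p under 0.05. Col15a1 and Col18a1 encode the multiplexins, basement membrane collagens that carry sugar chains, and the end of the Col18a1 protein is released as endostatin. Col15a1 was at 60.2, 64.1 and 74.7 FPKM in libraries labelled deficient and at 82.9, 86.9 and 69.4 FPKM in controls (log2 difference -0.26, SE 0.12, limma adjusted p = 0.27). The third library of each group made the groups overlap, and with both left out Col15a1 passed the threshold. Col18a1 averaged 26.4 ± 2.1 FPKM in libraries labelled deficient and 28.3 ± 3.1 FPKM in controls (-0.09, limma adjusted p = 0.64), and its annotated span overlaps Slc19a1 on the other strand, at most 4.03 FPKM. The network collagens Col8a1 and Col8a2, known from vessel walls, averaged 1.95 ± 0.54 and 2.35 ± 0.55 FPKM in libraries labelled deficient, against 1.26 ± 0.24 and 1.78 ± 0.18 FPKM in controls, and did not pass (0.37 and 0.26, limma adjusted p = 0.23 and 0.32). Col7a1, the anchoring fibril collagen under epithelia, averaged 4.63 ± 0.66 FPKM in libraries labelled deficient and 3.89 ± 0.78 FPKM in controls (SD, n = 3 each for these genes). Col13a1, a transmembrane collagen of cell adhesions, was at 0.798, 0.715 and 1.08 FPKM in libraries labelled deficient and at 1.37, 1.44 and 1.236 FPKM in controls, without overlap (-0.34, SE 0.10, limma adjusted p = 0.14), and passed with array weights.

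The remaining 18 collagen genes had a mean under 1 FPKM and were not tested. The highest was Col24a1, a fibrillar collagen of bone, at 1.33, 0.820 and 0.789 FPKM in libraries labelled deficient and at 0.727, 0.548 and 0.757 FPKM in controls, where the groups did not overlap. The groups were also apart, higher in libraries labelled deficient, for Col9a2 and Col25a1, at levels under 0.0815 FPKM. That value is 3 reads on a gene of 1 kb, and a longer transcript reaches 3 reads at a lower value. Col2a1, the collagen of cartilage, was at most 0.026 FPKM in libraries labelled deficient and 0.011 FPKM in controls. Col10a1, of growth plate cartilage, was at most 0.035 FPKM in both groups and its span lies within Nt5dc1 on the other strand. Col9a1 was listed at 0 in 4 of the 6 libraries. Col17a1, the hemidesmosome collagen of stratified epithelia, was between 0.108 and 0.142 FPKM in libraries labelled deficient and between 0.103 and 0.127 FPKM in controls.

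The summed level of all 44 genes was 6777, 7054 and 7154 FPKM in libraries labelled deficient and 8338, 8042 and 7375 FPKM in controls, which is between 1.88% and 1.98% of all FPKM in libraries labelled deficient and between 1.96% and 2.22% in controls. Within this sum, the 6 collagen IV genes, which form the basement membrane class here, made up 7.60%, 7.23% and 6.69% in the libraries labelled deficient and 8.51%, 8.63% and 9.09% in the control libraries. The beaded filament class made up 22.7%, 23.1% and 22.1% in the libraries labelled deficient and 19.0%, 19.1% and 17.7% in the control libraries. Fibrillar chains made up between 66.8% and 67.9% in the libraries labelled deficient and between 69.2% and 70.1% in the control libraries. These shares are given as a description with no test, since the classes sum to a whole.

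**Figure D3:**
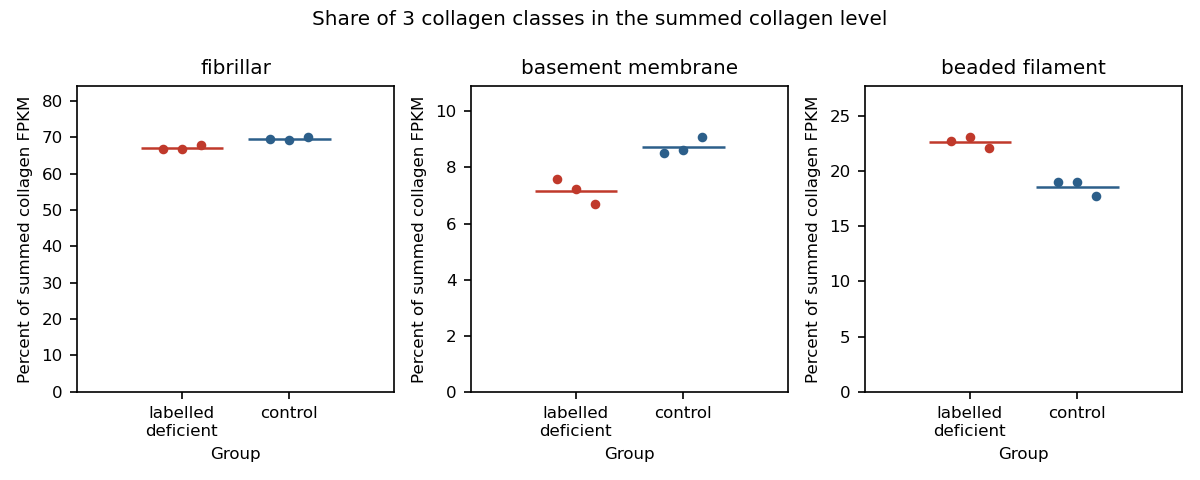
Percent of the summed collagen FPKM taken by the fibrillar, basement membrane and beaded filament classes, with 1 point per library, the group mean as a bar and each axis from 0. The groups do not overlap in any of the 3 panels: the beaded filament share is between 22.1% and 23.1% in the libraries labelled deficient and between 17.7% and 19.1% in the controls.

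Ratios of chains within a library, which no scaling factor of a library can change, were computed for 12 pairs. The groups did not overlap in 3 of them, each with an exact two-sided permutation p of 0.1, the smallest that 3 libraries against 3 allow, and 0.4 after adjustment over the 12 pairs. No pair could therefore pass. The ratio of Col6a3 to Col6a1 was 0.224, 0.231 and 0.191 in the libraries labelled deficient and 0.314, 0.280 and 0.279 in the control libraries, a log2 difference of -0.44. The ratio of Col1a1 to Col1a2 was 0.908, 0.930 and 0.928 in the libraries labelled deficient and 0.960, 0.970 and 0.959 in the control libraries, a small difference of -0.06 with little spread. The ratio of Col18a1 to Col15a1 was 0.428, 0.386 and 0.386 in the libraries labelled deficient and 0.344, 0.360 and 0.362 in the control libraries (0.17). By contrast, the ratio of Col4a1 to Col4a2 was 1.42 ± 0.04 in the libraries labelled deficient and 1.41 ± 0.05 in the control libraries (SD, n = 3 each, exact permutation p = 0.7), and the groups overlapped. The ratio of Col6a1 to Col6a2 was 1.48 ± 0.04 in the libraries labelled deficient and 1.52 ± 0.05 in the control libraries (SD, n = 3 each, exact permutation p = 0.3).

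**Figure D4:**
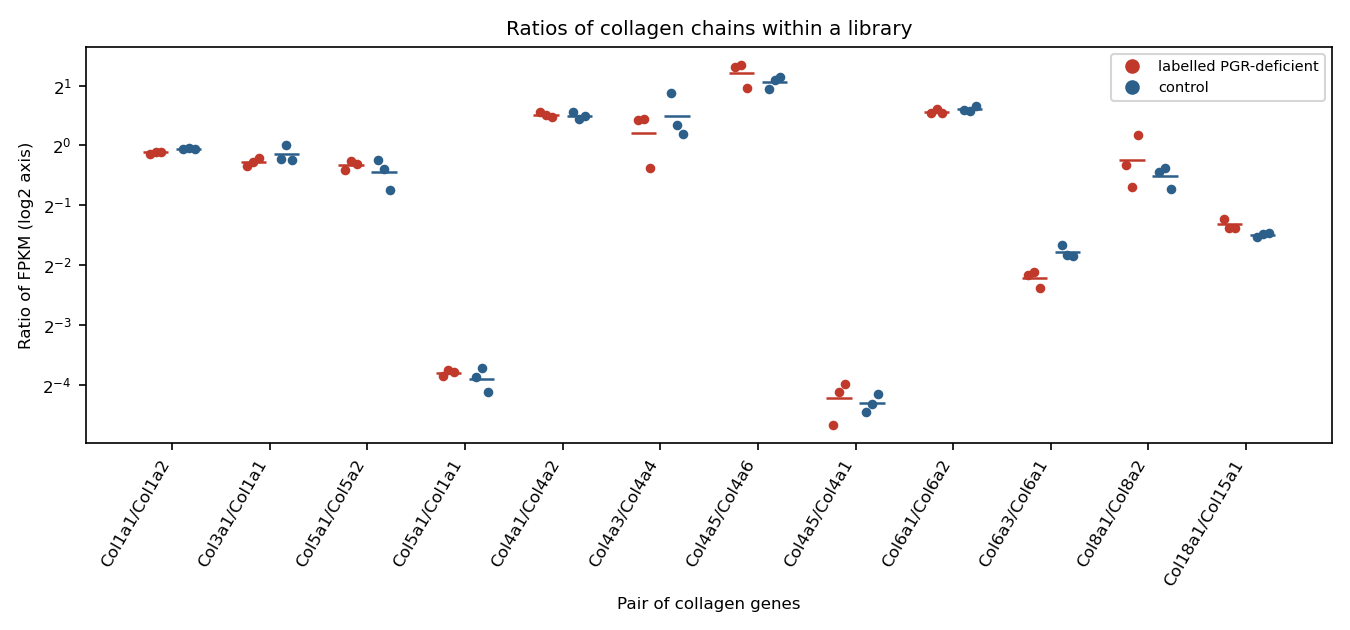
Ratio of the FPKM of pairs of collagen genes on a log2 axis, with 1 point per library and the group mean as a bar, the libraries labelled deficient (red) left of the controls (blue). Col6a3 to Col6a1 shows the widest separation of the 3 pairs without overlap, with 0.191 to 0.231 in the libraries labelled deficient and 0.279 to 0.314 in the controls.

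Genes that make, break down or bind collagen were taken from lists chosen by function. Of 55 such genes in the table, 51 were tested, 4 fell and 1 rose, which is 9.80% of those tested against 3.34% of all genes tested. Of the 9 receptor genes tested, 2 fell and 1 rose. Itga1, the integrin alpha subunit that with beta 1 prefers collagen IV, was at 5.01, 5.60 and 8.09 FPKM in libraries labelled deficient and at 16.1, 16.9 and 14.8 FPKM in controls (log2 difference -1.25, SE 0.16, limma adjusted p = 0.015). Itgb1, the beta subunit shared by all collagen-binding integrins, was at 165, 183 and 154 FPKM in libraries labelled deficient and at 293, 319 and 254 FPKM in controls (-0.78, SE 0.11, limma adjusted p = 0.021). Itga11, the alpha subunit that prefers fibrillar collagen, was at 2.55, 2.78 and 2.91 FPKM in libraries labelled deficient and at 0.915, 1.40 and 1.27 FPKM in controls (0.78, SE 0.11, limma adjusted p = 0.019). For each of these 3 integrin genes the groups were well apart. With 1 library left out their limma adjusted p rose to at most 0.076 for Itga1 (over the threshold without control 1, control 2 or deficient 2), 0.10 for Itgb1 (without control 1, control 2 or deficient 1) and 0.071 for Itga11 (without control 1, control 2, deficient 1 or deficient 2). With no filter on low values it was 0.075 for Itga1, 0.079 for Itgb1 and 0.072 for Itga11. Smooth muscle cells carry alpha 1 beta 1 integrin, and the 8 smooth muscle markers were lower in the same libraries; their part in these differences was not tested. The collagen receptor tyrosine kinases Ddr1 (0.58, limma adjusted p = 0.14) and Ddr2 (-0.05, limma adjusted p = 0.74) did not pass, although Ddr1 was higher in each library labelled deficient than in every control.

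Of 17 enzymes and partners that modify collagen chains inside the cell, 1 fell. At an unadjusted limma p under 0.05, 6 of the 17 had lower and 0 higher values. Of all genes tested, 7.09% had lower and 14.4% higher values at that level. P4ha3, a catalytic subunit of the prolyl hydroxylase that stabilises the triple helix, was at 11.8, 12.3 and 8.56 FPKM in libraries labelled deficient and at 23.8, 24.1 and 19.5 FPKM in controls (log2 difference -0.99, SE 0.15, limma adjusted p = 0.025). With control 1, control 2, deficient 1 or deficient 2 left out it missed the threshold, at a limma adjusted p of at most 0.11, and with no filter on low values it was 0.10. The other catalytic subunits, P4ha1 and P4ha2, did not pass. Of 6 genes tested for removal of the propeptides, Pcolce2, an enhancer of procollagen cleavage, fell to 0.859, 1.02 and 0.552 FPKM in libraries labelled deficient, against 1.78, 1.65 and 1.97 FPKM in controls (-0.63, SE 0.12, limma adjusted p = 0.046). Pcolce2 kept its call only without deficient 3 among the fits with 1 library left out (limma adjusted p up to 0.17 in the others), and lost it with pseudocounts of 0.1 and 0.5, after rescaling to equal sums and with no filter on low values. In the same list Adamts14, a procollagen N-proteinase, had a difference of like size in the other direction that did not pass, at 5.43, 5.45 and 4.78 FPKM in libraries labelled deficient and 3.54, 3.54 and 2.07 FPKM in controls (0.64, SE 0.16, limma adjusted p = 0.0996). Of 7 chaperone and export genes 0 passed, and 3 had lower and 0 higher values at an unadjusted limma p under 0.05. The members with the smallest p were the coat proteins of secretory vesicles Sec23a (-0.24, limma adjusted p = 0.15) and Sec24d (-0.27, limma adjusted p = 0.15). Of 5 cross-linking oxidases 0 passed and 1 had an unadjusted p under 0.05, with Loxl4 at -0.58 (limma adjusted p = 0.21) and Loxl1 at -0.22 (limma adjusted p = 0.25). Of 7 genes of collagen breakdown and uptake 0 passed and 1 had an unadjusted p under 0.05, with the protease Fap at -0.28 (limma adjusted p = 0.23) and the gelatinase Mmp2 at 0.31 (limma adjusted p = 0.25).

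**Figure D5:**
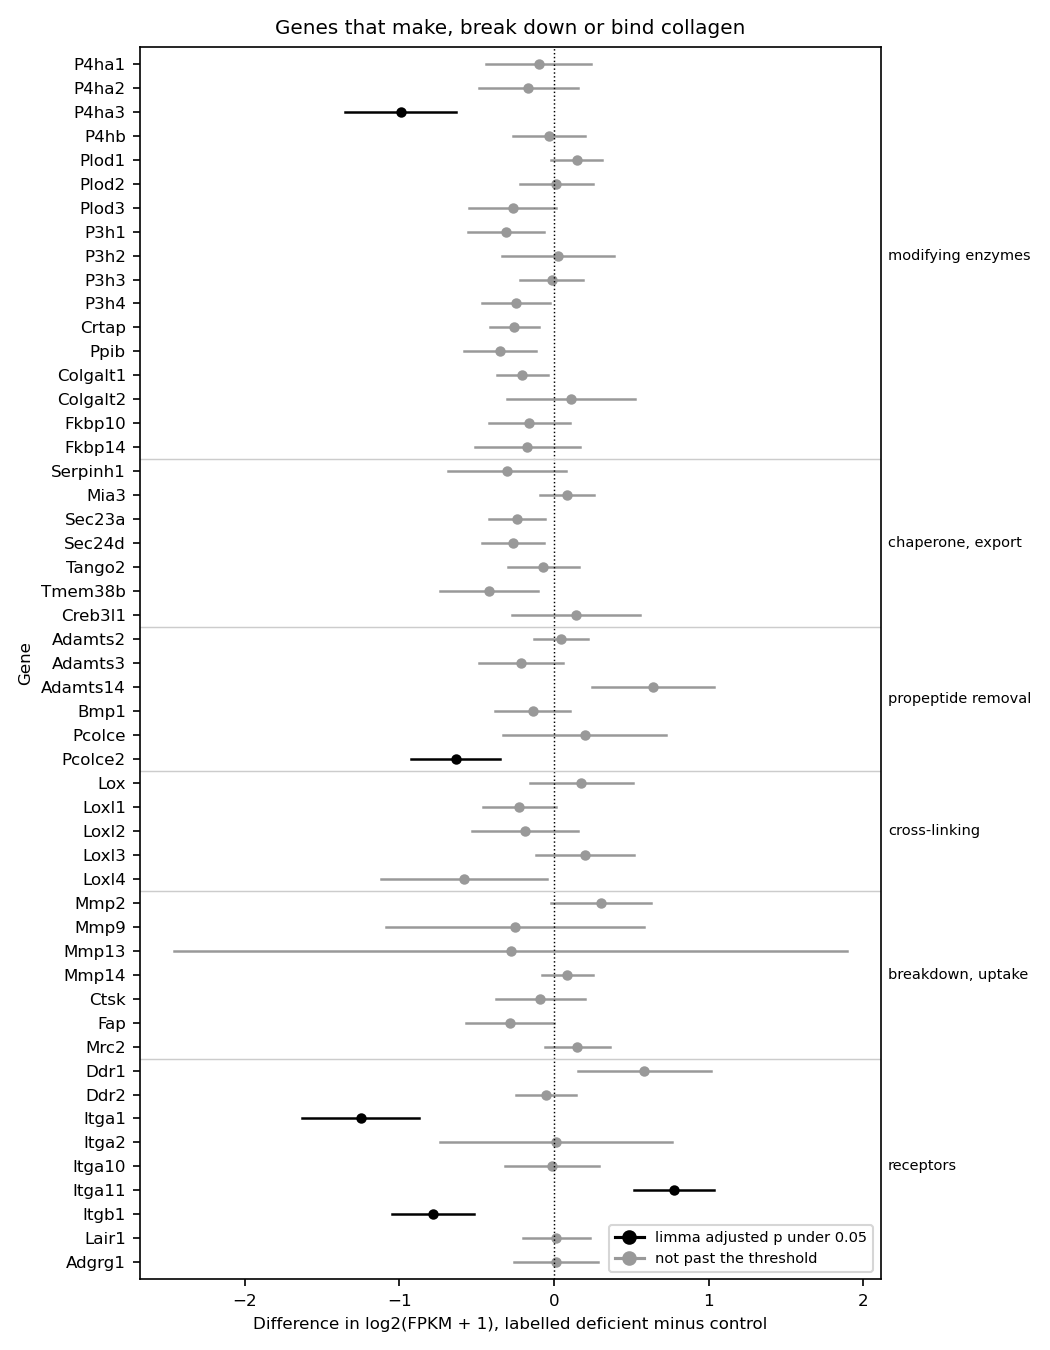
Difference in log2(FPKM + 1), labelled deficient minus control, with its 95% confidence interval from limma, of the 51 genes tested that modify, export, process, cross-link, break down or bind collagen; black marks genes past an adjusted p of 0.05. Itga1, Itgb1, P4ha3 and Pcolce2 are black on the negative side and Itga11 on the positive side.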

How the data were processed

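RNA of 6 uterine samples was sequenced, after TRIzol extraction and a standard Illumina library preparation per the labels' protocols. The authors deposited FPKM values with 3 decimals. The tools DESeq2 1.24.0, STAR 2.7.0f and cutadapt 2.7 and the build mm10 are listed, without roles, per the submitters' processing notes. Not given in the sources used here are the counter, annotation, strand setting and handling of shared reads, and reads of genes that overlap may not be told apart. Each of the 6 columns was named in the label of 1 sample.

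Low values came out within 0.1 of whole reads for between 72.5% and 79.5% of genes with 1 annotated transcript, too few to recover reads for all genes, so no count model was fitted here. The deposited FPKM were put on the log2(FPKM + 1) scale and tested with limma 3.58.1 in R 4.3.3 (eBayes with trend, difference coded as labelled deficient minus control) over the 12500 genes that averaged 1 FPKM or more. Benjamini-Hochberg adjustment ran over all of them, with a threshold of 0.05. This scale understates the differences of low genes. The fit was tested on simulated data with independent noise, where it recovered 78.5% of 2-fold and 92.5% of 4-fold changes. Changes as small as those of the 3 collagen genes called were not simulated. Values in every sample were given for members past the threshold, the 12 most abundant members and members tested whose groups did not overlap; the other members were given by means or ranges, and Col6a4, Col14a1, Col24a1, Adamts14 and Prl8a2 were chosen for values in every sample after these were seen, as were Ddr1, Ddr2, P4ha1, P4ha2, Bmp2 and Wnt4 for mention. Ratios of chains were compared with an exact permutation test. Members, lists, tests and alternatives were chosen with earlier results of these data known. The alternatives were other pseudocounts, filters, scalings, variance settings, array weights, a replicate block and leaving out libraries. Gene positions are from GENCODE M21 and promoter sequences from RefSeq (GRCm38.p6).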

Additional observations from a re-analysis of the deposited data

How the results depend on the processing

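Among 504 values of log2 differences under up to 17 alternatives, for 30 genes (the members named by the rule, Pgr and the named genes that make, break down or bind collagen), 430 kept their direction and side of the threshold, 51 lost the call, 16 gained one and 7 turned sign. The turns were those of Col1a1 (0.036) and Col1a2 (0.068) under quantile normalization, and of Pgr under median-of-ratios scaling (-0.012), quantile normalization (-0.0054) and without control 2 (-0.068), deficient 1 (-0.015) or deficient 2 (-0.078), in a range from -0.078 to 0.23 with 1 library left out; Col12a1 and Col6a4, whose turns are given in the report, are not among the 30. The number of collagen genes lower was 1 with no filter, 9 with array weights, 0 with a replicate block, 6 with the third library of both groups left out and between 0 and 3 with 1 library left out; 1 was higher with array weights. The number of all genes called was 192 with no filter, 1770 with array weights, 143 with a replicate block, 1275 without the third libraries and between 99 and 525 with 1 library left out. Chain ratios without overlap numbered between 3 and 5 with 1 library left out and 5 without the third libraries. Rescaling to equal sums gave 218 genes higher and 211 lower (median 0.11), 125 and 379 followed with median-of-ratios scaling, and 131 and 338 with quantile normalization, against 168 and 249 as reported. Deviations of same-numbered libraries correlated at -0.14, 0.079 and -0.13, so the numbers were not treated as pairs. With the block the limma adjusted p was 0.077 for Col4a2, 0.083 for Col4a1, 0.11 for Col16a1, 0.071 for Itga1, 0.054 for Itga11 and 0.14 for Pcolce2, and P4ha3 (0.031) and Itgb1 (0.038) passed; deficient 1 correlated best with control 3 (0.20). The causes of these changes were not tested. The depth of single libraries is unknown.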
